A study of Homo sapiens with 12 samples.

Results

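The genes of cholesterol synthesis and of its SREBP control were followed through 12 arrays of human soft tissue sarcoma cells. The rule lists the members by name and sets no threshold on a measured value: HMGCS1, IDI1, SQLE, LSS, DHCR7 and FDFT1 of the synthesis pathway, and INSIG1 and SREBF2 of its control. Every probe set whose platform gene symbol was one of these 8 genes was taken, which gave 21 probe sets of 7 genes among the 54675 probe sets of the array; FDFT1 is not analysed here. All 7 genes, with 20 of the 21 probe sets, were bright enough to be tested, among 14221 genes tested in all.

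The 3 cell lines carry the labels rhabdomyosarcoma (A-204), leiomyosarcoma (SK-LMS-1) and epithelioid sarcoma (VA-ES-BJ). Each was left untreated or was given 250 µmol/l taurolidine, 50 ng/ml TRAIL, or both agents, and RNA was taken at 6 h. Taurolidine is a taurine derivative known as an antimicrobial that also kills tumour cells in culture, and TRAIL is a ligand of death receptors. The series asks how the agents act together. There was 1 array for each line and treatment, so a treatment mean rests on n = 3 lines, and each line is 1 culture model of its tumour type. The arrays of a line had different treatments, but no line and treatment had a second array. Nothing in the labels says whether the cultures of a line were started separately. The p-values therefore describe the spread that each model leaves among the arrays, which may be partly technical. In the treatment contrasts that spread also holds differences of response between lines. In bulk RNA, fewer living cells and less RNA per cell cannot be told apart.

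Cells build cholesterol from acetyl units through the mevalonate pathway, which also yields the isoprenoids of dolichol, ubiquinone and prenylated proteins. HMGCS1 makes HMG-CoA at the start of the pathway, IDI1 interconverts the isoprene building blocks, SQLE oxidises squalene in the committed sterol branch, LSS closes the ring to lanosterol, and DHCR7 makes cholesterol in the last step. SREBF2 encodes SREBP-2, a membrane-bound transcription factor that SCAP escorts to the Golgi for cleavage when sterols are low, and INSIG1, itself a target of SREBP, holds the complex in the endoplasmic reticulum when sterols are high.

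The promoters are shown because SREBP is known to act on such genes through a sterol regulatory element, often beside a CCAAT box that binds NF-Y. RefSeq gave 10 start sites (GRCh38.p14) for 6 of the members, and the 250 bases before each were searched on both strands for TCACNCCAC, a form of the sterol regulatory element, and for CCAAT. The matches of one motif did not overlap those of the other. The first motif was found before 1 of the 10 starts, that of SREBF2, and in 0.883% of all 35116 promoters searched over the same length. CCAAT was found before 7 of the 10 starts, at least 1 for each of the 6 genes, and in 32% of all promoters. A match is a description of letters and not a site of binding. The windows below run 5′ to 3′ on the gene's strand up to the base before the start, with each match in capitals (ATTGG is CCAAT on the other strand). They are SREBF2 at chr22:41832855-41833104 (plus strand), IDI1 at chr10:1048887-1049136, LSS at chr21:46228775-46229024 and DHCR7 at chr11:71448394-71448643 (all minus strand), with the start of most matches taken for IDI1 and DHCR7.
SREBF2: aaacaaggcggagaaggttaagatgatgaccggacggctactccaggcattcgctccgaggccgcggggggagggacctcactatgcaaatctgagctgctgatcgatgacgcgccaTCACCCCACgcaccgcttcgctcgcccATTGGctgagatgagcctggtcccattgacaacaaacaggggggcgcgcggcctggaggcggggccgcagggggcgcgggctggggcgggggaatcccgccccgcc
IDI1: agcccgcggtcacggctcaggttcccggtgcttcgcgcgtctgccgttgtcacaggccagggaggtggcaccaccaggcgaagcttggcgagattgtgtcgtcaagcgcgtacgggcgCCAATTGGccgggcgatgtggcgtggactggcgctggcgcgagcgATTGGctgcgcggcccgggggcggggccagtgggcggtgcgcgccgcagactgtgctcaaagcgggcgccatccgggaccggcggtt
LSS: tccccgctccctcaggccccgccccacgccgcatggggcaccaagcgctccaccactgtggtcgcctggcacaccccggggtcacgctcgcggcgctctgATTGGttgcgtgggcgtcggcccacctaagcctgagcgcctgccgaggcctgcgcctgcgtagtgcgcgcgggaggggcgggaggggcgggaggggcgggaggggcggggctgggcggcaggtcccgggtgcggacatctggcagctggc
DHCR7: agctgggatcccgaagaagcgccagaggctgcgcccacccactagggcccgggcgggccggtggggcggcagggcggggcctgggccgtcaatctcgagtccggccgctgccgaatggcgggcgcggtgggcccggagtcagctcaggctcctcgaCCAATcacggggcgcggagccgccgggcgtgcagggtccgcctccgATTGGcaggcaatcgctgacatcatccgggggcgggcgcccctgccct
In SREBF2 the TCACNCCAC match began 133 bases before the start and the CCAAT match 106 bases before it. IDI1 had CCAAT matches at 132, 129 and 87 bases, of which the first and second overlap, DHCR7 at 94 and 48 bases, and LSS at 150 bases.

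Values are MAS5 signals in arbitrary units, and as deposited the mean of an array without its lowest and highest 2% lay between 1000.12 and 1000.16 on all 12 arrays. A signal therefore gives a level relative to the mean of its array. The markers of the lines followed their labels in part: the skeletal muscle genes MYOD1, MYOG and MYF5 lay below the table median of 136.5 on all 12 arrays, A-204 included. DES, the other skeletal muscle gene, was above that median on 7 arrays. It read 132, 127 and 145 in untreated A-204, SK-LMS-1 and VA-ES-BJ. Of the smooth muscle genes in untreated cells, TAGLN and CNN1 were highest in SK-LMS-1 (9763 and 661), whereas ACTA2 was highest in VA-ES-BJ (4979.9, against 1686 in SK-LMS-1 and 1667 in A-204), and MYH11 was at 137 in SK-LMS-1. SMARCB1, often lost in epithelioid sarcoma, had 152 in VA-ES-BJ, 3530 in SK-LMS-1 and 1235 in A-204, all untreated. The keratins KRT8, KRT18 and KRT19, also taken as epithelioid sarcoma markers, were highest in untreated VA-ES-BJ (16153, 18904 and 16189). MUC1, a further marker of that tumour, went the other way: untreated VA-ES-BJ was lowest at 292, while SK-LMS-1 read 542 and A-204 read 733. Of the markers of other cell types, PTPRC of leukocytes and CDH5 of endothelium were below the table median throughout, and CD3E, PECAM1 and HBB lay between 96.4 and 389 in untreated cells.

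The lines differed in their levels of the members across all treatments. DHCR7 separated all 3 lines. Its brightest probe set read 635, 892, 944 and 897 in A-204 (untreated, taurolidine, TRAIL and both), against 2314, 3349, 2898 and 3303 in SK-LMS-1, and 1715, 2255, 1381 and 2073 in VA-ES-BJ. No array of one line overlapped those of another. Over the 4 treatments DHCR7 was 3.49-fold higher in SK-LMS-1 than in A-204 (limma, adjusted p = 1.6e-05) and 2.17-fold higher in VA-ES-BJ than in A-204 (adjusted p = 0.00024), and SK-LMS-1 exceeded VA-ES-BJ by 1.60-fold (adjusted p = 0.0035).

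LSS was highest in A-204. It was 1.55-fold lower in SK-LMS-1 than in A-204 (adjusted p = 0.00044) and 1.66-fold lower in VA-ES-BJ than in A-204 (adjusted p = 0.00019), while SK-LMS-1 and VA-ES-BJ did not differ beyond their spread (adjusted p = 0.36). SREBF2 stood higher in SK-LMS-1, by 1.58-fold over A-204 (adjusted p = 0.00068) and 1.61-fold over VA-ES-BJ (adjusted p = 0.00052), and the other two lines did not differ beyond their spread (adjusted p = 0.85). HMGCS1 was lower in VA-ES-BJ than in A-204 by 1.52-fold (adjusted p = 0.0066) and than in SK-LMS-1 by 1.91-fold (adjusted p = 0.00062). SQLE and INSIG1 were higher in SK-LMS-1 than in A-204, by 1.54-fold and 1.92-fold (adjusted p = 0.010 and 0.011), and VA-ES-BJ lay between them without a difference from either neighbour past 0.05. IDI1 was 1.35-fold higher in SK-LMS-1 than in A-204 (adjusted p = 0.039) and 1.42-fold higher than in VA-ES-BJ (adjusted p = 0.020), but a mean over its probe sets turned the second difference round, to 0.11 higher in VA-ES-BJ on the log2 scale, and also turned the HMGCS1 difference between SK-LMS-1 and A-204, which was not called.

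In all, 13 of the 21 differences between lines passed an adjusted p of 0.05: 6 of 7 members between SK-LMS-1 and A-204, 3 of 7 between VA-ES-BJ and A-204, and 4 of 7 between VA-ES-BJ and SK-LMS-1. Of all genes tested, 56.1%, 56.4% and 56.9% passed in these comparisons, so the members did not stand apart from genes at large by these counts.

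**Figure D1:**
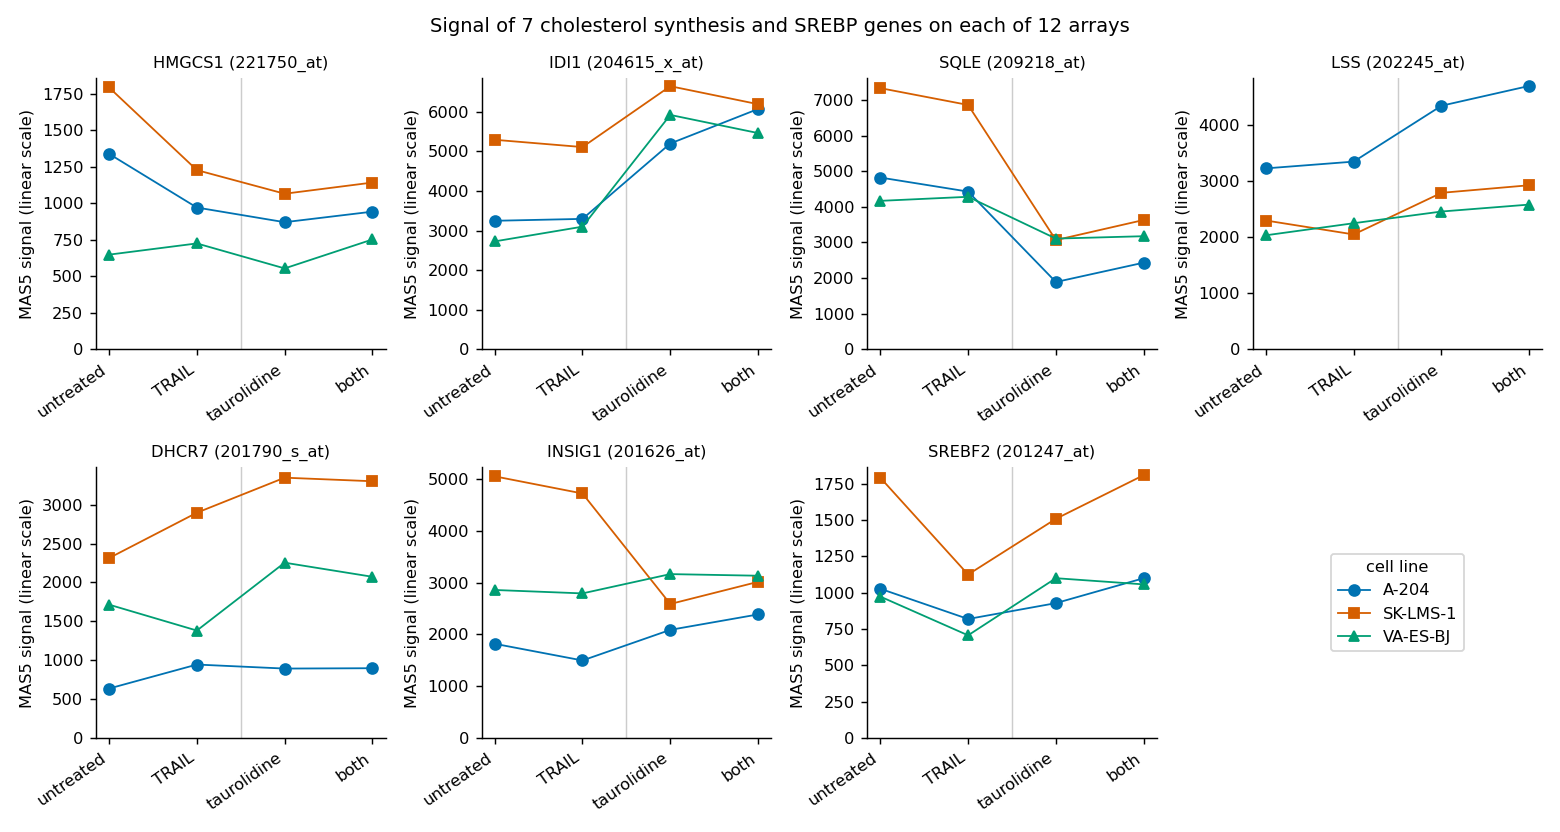
MAS5 signal of the brightest probe set of each of the 7 members (linear axis from 0) for the 4 treatments, with 1 point for each array and points of a cell line joined; a grey line separates arrays without taurolidine from those with it. As deposited, SQLE was lower and IDI1 and LSS were higher on every array with taurolidine than on the arrays of the same line without it (with spike scaling LSS turns lower), and DHCR7 separates the 3 cell lines.

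Taurolidine against untreated cells moved single members in opposite directions. SQLE fell 2.01-fold and IDI1 rose 1.63-fold, and the 5 other members did not pass the test. In the same contrast 7.71% of all genes were called higher and 11.5% lower, so 1 of 7 members in each direction is close to what genes at large gave. All of these changes are relative to the mean of each array, and scaling on the poly-A spikes, described further on, lowers every change and turns those of LSS and DHCR7 below 0.

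HMGCS1, the entry enzyme, read 1338, 1792 and 648 in untreated A-204, SK-LMS-1 and VA-ES-BJ and 869.8, 1065 and 553 with taurolidine. On this probe set, 221750_at, it was lower in each line, and the groups overlapped. On 205822_s_at the changes were 0.10, 0.31 and -0.61 in the same order of lines, so the direction was not shared. The change of 221750_at was -0.53 ± 0.16 on the log2 scale (mean of 3 lines with limma's SE, adjusted p = 0.057), just short of the threshold. In all treatment contrasts this SE comes from 1 spread per gene, pooled over all 12 arrays. It can understate the spread of a response between the 3 lines. Fitted to only the 6 arrays compared, limma gave adjusted p = 0.12 for SQLE and 0.14 for IDI1.

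IDI1, the isomerase, read 3247, 5295 and 2726 untreated and 5201, 6649.65 and 5923 with taurolidine in the same order of lines. Each line was higher with taurolidine, and the lowest treated value lay just under the highest untreated one, that of SK-LMS-1. The change was 0.71 ± 0.17 (adjusted p = 0.027), smallest in SK-LMS-1 (0.33) and larger in A-204 (0.68) and VA-ES-BJ (1.12).

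SQLE, the epoxidase and a rate-limiting enzyme of the sterol branch, read 4823, 7334 and 4168 untreated and 1887, 3066 and 3107 with taurolidine. Every treated value lay below every untreated one. The change was -1.01 ± 0.18 (adjusted p = 0.010), with VA-ES-BJ at -0.42, SK-LMS-1 at -1.26 and A-204 at -1.35.

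LSS, the cyclase, read 3227, 2297 and 2033 untreated and 4344, 2790.4 and 2457 with taurolidine. It was higher in each line by a similar step, 0.43, 0.28 and 0.27 on the log2 scale, though the groups overlapped. The mean change was 0.33 ± 0.10 (adjusted p = 0.060) and did not pass. DHCR7 was likewise higher in each line, with 0.48, 0.53 and 0.39 and a mean of 0.47 ± 0.16 (adjusted p = 0.083).

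The control genes did not share a direction across lines. INSIG1 read 1818, 5051 and 2857 untreated and 2086, 2586 and 3163 with taurolidine, so it was lower in SK-LMS-1 and slightly higher in A-204 and VA-ES-BJ. Its mean change was -0.21 ± 0.28 (adjusted p = 0.66). SREBF2 read 1027, 1792 and 974 untreated and 928, 1509 and 1100.1 with taurolidine, a mean change of -0.07 ± 0.12 (adjusted p = 0.71) with a 95% interval from -0.34 to 0.20.

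**Figure D2:**
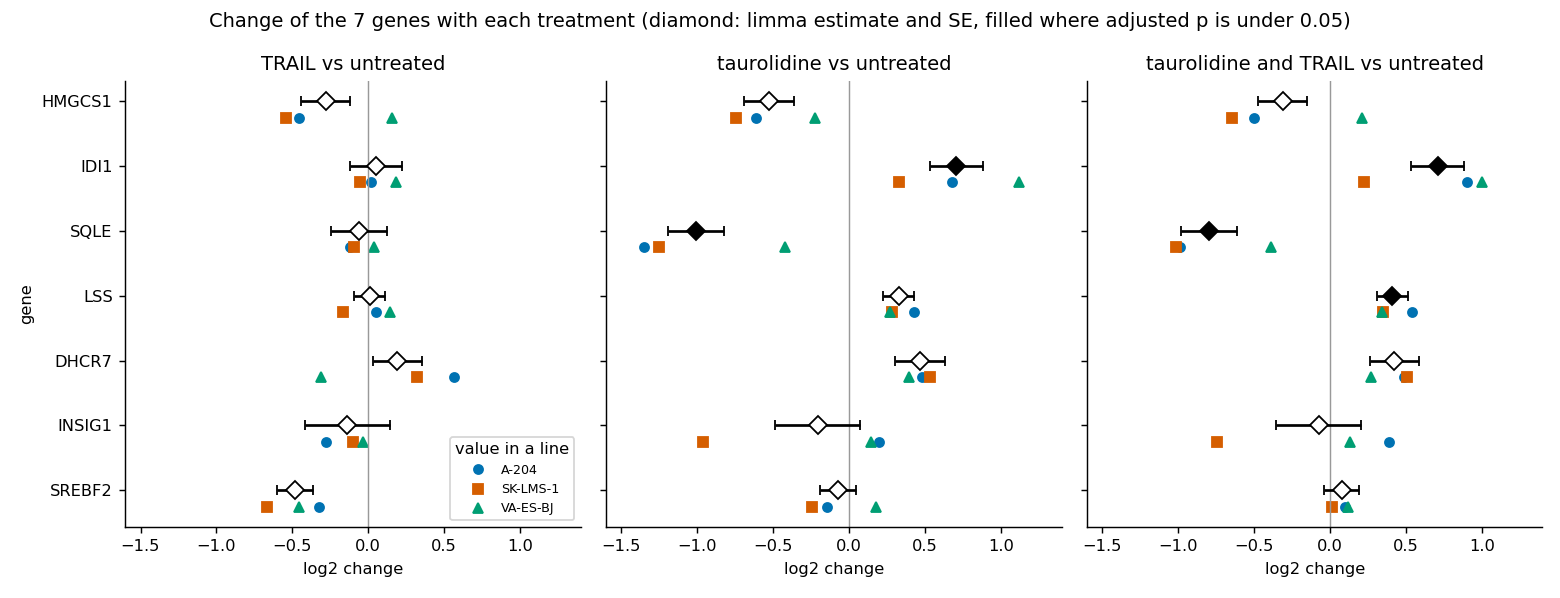
Log2 change of each of the 7 members against untreated cells with taurolidine, TRAIL and both agents. Coloured points are the 3 cell lines and diamonds the limma estimate with its standard error, filled where the adjusted p is under 0.05; SQLE lies below 0 and IDI1 above 0 in all lines with taurolidine and with both agents, and the INSIG1 points of SK-LMS-1 lie apart from those of the other lines.

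TRAIL alone called no member in limma, and no gene of the whole table (0% of 14221) passed, with 563 genes at an unadjusted p under 0.05. SQLE read 4428, 6862 and 4282 with TRAIL in A-204, SK-LMS-1 and VA-ES-BJ, close to its untreated values. The change was -0.06 ± 0.18 with a 95% interval from -0.48 to 0.36. IDI1 changed by 0.05 (interval -0.35 to 0.45), LSS by 0.01 (interval -0.22 to 0.25) and DHCR7 by 0.19 (interval -0.18 to 0.57).

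Of the members, SREBF2 was the one with an unadjusted p under 0.05 for TRAIL. Its brightest probe set read 819, 1125 and 707 with TRAIL, the lowest of the 4 treatments in each of the 3 lines. The change was -0.48 ± 0.12 (limma, unadjusted p = 0.0033, adjusted p = 1.0), with -0.32, -0.67 and -0.46 in the lines, so it did not pass. The other two probe sets of SREBF2 changed by 0.10 and -0.18. With taurolidine added, the low value was not seen: both agents gave 1100.02, 1810 and 1057, and the departure of the combination from the sum of the single changes was 0.63 (unadjusted p = 0.0051, adjusted p = 1.0). No gene passed the departure test (0% called, 537 with an unadjusted p under 0.05).

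With both agents against untreated cells, 2 of the 7 members rose and 1 fell, against 7.58% of all genes called higher and 11.3% lower. IDI1 read 6073, 6195 and 5465 and rose by 0.71 ± 0.17 (adjusted p = 0.028). LSS read 4698, 2926 and 2581 on 202245_at and rose by 0.41 ± 0.10 (adjusted p = 0.030), but its other probe sets changed by -0.21 and 0.05, and the mean over its probe sets by 0.083 (adjusted p = 0.77), which ends the call. SQLE read 2431, 3629.98 and 3175 and fell by 0.80 (SE 0.18, adjusted p = 0.023). IDI1 and SQLE were also called with taurolidine alone, in the same directions, and the contrasts share the untreated arrays.

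TRAIL added to taurolidine called none of the members and no gene at all (0%; 374 genes at an unadjusted p under 0.05, none of them a member). The change in SQLE was 0.21 ± 0.18 and that in IDI1 0.00 ± 0.17. Taurolidine added to TRAIL called 3 members higher, against 6.5% of all genes, and 1 lower, against 9.72%. It shares no array with the contrast of taurolidine alone. Both contrasts come from the same fit, with the same 3 lines and 1 spread for each gene, so they are not independent tests. IDI1 rose by 0.66 ± 0.17 (adjusted p = 0.039), LSS by 0.40 ± 0.10 (adjusted p = 0.036) and SREBF2 by 0.56 ± 0.12 (adjusted p = 0.019), and SQLE fell by 0.74 (SE 0.18, adjusted p = 0.034). The SREBF2 call rests on 201247_at, whose TRAIL arrays were its lowest; 201248_s_at and 242748_at changed by -0.20 and 0.05, and the mean over the probe sets by 0.14 (adjusted p = 0.46). With that mean LSS was not called either (0.34, adjusted p = 0.19).

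Over both TRAIL states, with 6 arrays with taurolidine and 6 without, IDI1, LSS and DHCR7 rose and SQLE fell, 3 of 7 members higher against 16.6% of all genes and 1 of 7 lower against 18.1%. The model has no line-by-taurolidine term, so the taurolidine arrays of a line count as separate in this contrast. Its SE and p-values can therefore understate the spread of the response between lines. SQLE fell by 0.87 (SE 0.13, adjusted p = 0.0021), which is 1.83-fold, with -1.10, -1.09 and -0.43 in A-204, SK-LMS-1 and VA-ES-BJ. IDI1 rose 1.61-fold, by 0.68 ± 0.12 (adjusted p = 0.0044), and LSS 1.29-fold, by 0.36 ± 0.07 (adjusted p = 0.0068; 0.26 and 0.12 for the mean over its probe sets, which ends the call). DHCR7 was barely past the threshold at 0.35 ± 0.12 (adjusted p = 0.048). HMGCS1 changed by -0.28 ± 0.11 (adjusted p = 0.097), SREBF2 by 0.24 ± 0.08 (adjusted p = 0.053) and INSIG1 by -0.07 ± 0.20 (adjusted p = 0.81).

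IDI1 and LSS lay higher on both taurolidine arrays than on both other arrays in each of the 3 lines, which held for 14% of all genes, and SQLE lay lower on both in each line, which held for 15.1%. HMGCS1, DHCR7, INSIG1 and SREBF2 did neither. Most calls of members were lost when a line was left out, and calls over all 14221 genes fell as well. Over both TRAIL states these went from 4927 to 1761, 2188 and 2885 without A-204, SK-LMS-1 and VA-ES-BJ. For taurolidine against untreated they went from 2735 to 363, 425 and 361. Over both TRAIL states, no member was called without A-204, where SQLE stood at -0.76 (adjusted p = 0.055), IDI1 alone was called without SK-LMS-1, and SQLE, LSS and HMGCS1 were called without VA-ES-BJ. In taurolidine against untreated, SQLE was called without VA-ES-BJ (-1.30, adjusted p = 0.031), and no member was called without A-204 or without SK-LMS-1. The directions of SQLE, IDI1, LSS and DHCR7 over both TRAIL states were the same without each line.

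The probe sets of a gene can differ, so each was also tested on its own among 32421. Taurolidine against untreated called 2 of the 20 members' probe sets higher and 3 lower, against 3.92% and 9.65% of all probe sets. All 3 tested SQLE probe sets fell. 213562_s_at read 1353, 1985 and 1399 untreated and 477, 570.1 and 601 with taurolidine and fell by 1.49 (adjusted p = 0.0025), the brightest, 209218_at, fell by 1.01 (adjusted p = 0.015), and 213577_at fell by 0.57 (adjusted p = 0.028). The direction was shared and the size differed. The fourth SQLE probe set exceeded the table median on only 2 arrays and was not tested.

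IDI1 rose on 2 of its 4 probe sets. 208881_x_at read 3007, 5094 and 2807 untreated and 4943, 5997 and 5413 with taurolidine, a change of 0.63 (adjusted p = 0.036), beside 0.71 (adjusted p = 0.038) for 204615_x_at. The ending x_at marks probe sets with probes that also match other transcripts, so a share of this signal may come from relatives of IDI1. The other two probe sets changed by 0.93 and 0.64 and did not pass (adjusted p = 0.15 and 0.41).

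Over both TRAIL states 4 member probe sets were called higher and 3 lower, against 11% and 17.4% of all probe sets. The SQLE probe sets fell by 1.22, 0.87 and 0.62, and IDI1 rose by 0.68 and 0.70 on 204615_x_at and 208881_x_at. LSS was called on 202245_at (0.36, adjusted p = 0.012), while 211018_at and 211019_s_at changed by 0.34 and 0.09 without passing. DHCR7 was called on 201791_s_at (0.44, adjusted p = 0.017) and not on the brightest, 201790_s_at (0.35, adjusted p = 0.062). On 201791_s_at all 3 lines lay higher, at 932 and 889 with taurolidine in A-204 against 661 and 531 without, at 2818 and 2541 in SK-LMS-1 against 2295 and 1975, and at 1183 and 1569 in VA-ES-BJ against 1010.2 and 1055. The probe sets of HMGCS1, INSIG1 and SREBF2 were called in neither contrast.

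**Figure D3:**
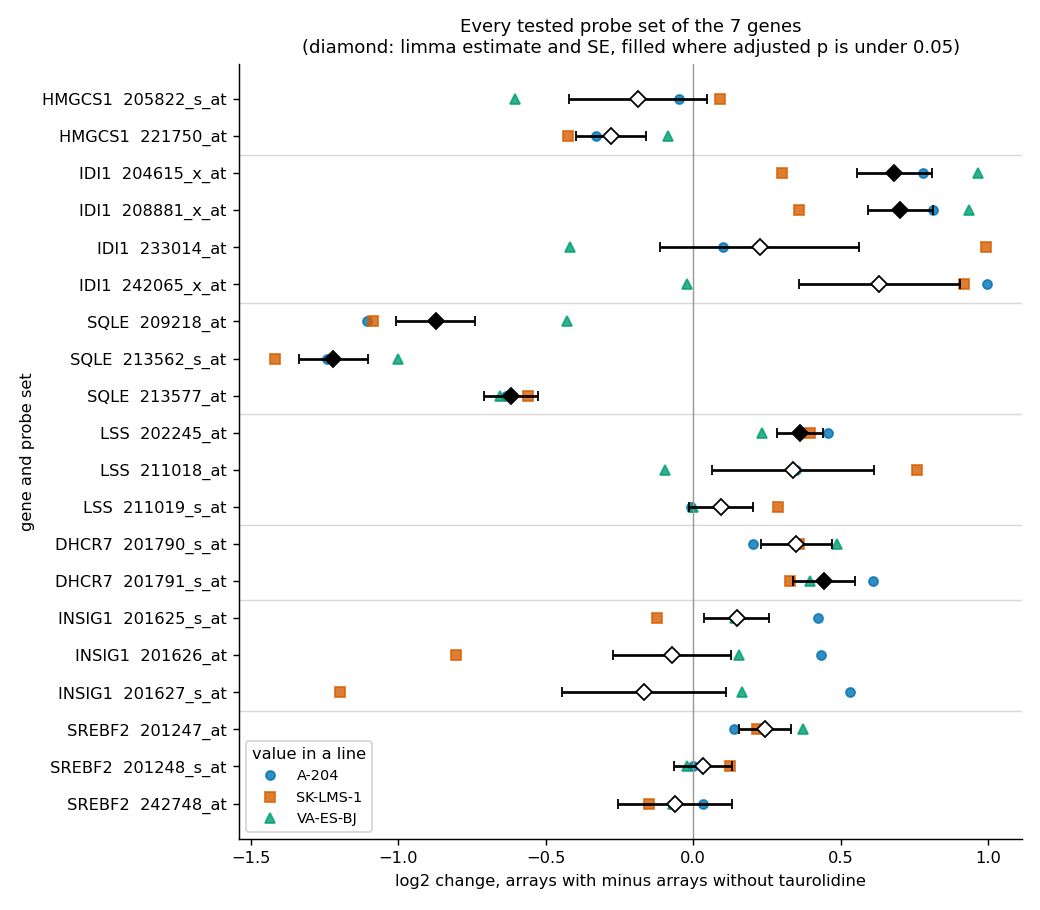
Log2 change of each of the 20 tested member probe sets with taurolidine over both TRAIL states. Diamonds are limma estimates with standard errors, filled where the adjusted p among 32421 probe sets is under 0.05, and coloured points are the 3 cell lines. The 3 SQLE probe sets lie below 0, and 204615_x_at and 208881_x_at of IDI1 lie at 0.68 and 0.70.

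No member passed limma's F test for a difference between lines in the response to taurolidine, which 1.43% of all genes passed, and 3 members (INSIG1, IDI1 and SQLE) had an unadjusted p under 0.05. INSIG1 came nearest, with an adjusted p of 0.057. In SK-LMS-1 its brightest probe set read 5051 and 4720 without taurolidine and 2586 and 3014 with it. In A-204 it read 1818 and 1495 without and 2086 and 2385 with it, and in VA-ES-BJ 2857 and 2790.45 without and 3163 and 3132 with it. The taurolidine arrays lay below the others in SK-LMS-1 and above them in the other two lines, at -0.80 against 0.43 and 0.16 on the log2 scale. The probe set 201627_s_at was lower in SK-LMS-1 too, with 4242 and 4379 without and 1844 and 1907 with taurolidine, whereas 201625_s_at read 1997 and 1956 without and 1654 and 1989 with it. For SQLE the adjusted p was 0.17, and for IDI1 0.15.

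The scaling of the arrays decides how some of these changes read. The 27 probe sets of the poly-A spikes, RNAs added to the samples before labelling, were 0.59 higher on the log2 scale with taurolidine (SD 0.11, n = 3 lines), that is 1.51-fold, with 0.73, 0.52 and 0.54 in A-204, SK-LMS-1 and VA-ES-BJ. The 3′ to 5′ ratios of GAPDH and ACTB, which follow RNA integrity, changed by -0.00 each (SD 0.02 and 0.03). When the arrays were scaled to equal spikes, the median of all genes over both TRAIL states was -0.53, against 0.04 as deposited. Whether cells held less messenger RNA or samples took up more spike was not tested.

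Under spike scaling SQLE fell by 1.46 (adjusted p = 0.00011), IDI1 was at 0.09 (adjusted p = 0.52), LSS at -0.23 (adjusted p = 0.035) and DHCR7 at -0.24 (adjusted p = 0.13). HMGCS1, INSIG1 and SREBF2 were at -0.87, -0.66 and -0.34 and passed as falls (adjusted p = 0.00064, 0.012 and 0.021). With this scaling 9558 of all 14221 genes were called, and only 77 of those were higher. The 5 of 7 members called as falls therefore did not stand apart from genes at large by that count. The rises of LSS and DHCR7 thus turned round and that of IDI1 was no longer called, while the fall of SQLE passed as deposited, with quantile normalisation (-0.83), with equal array medians (-0.83) and with spikes. Spike scaling multiplies all values of an array by the same factor, so distances from the median of all genes are nearly kept by construction. SQLE lay -0.91 from that median as deposited and -0.94 with spikes, IDI1 0.64 and 0.62, LSS 0.32 and 0.30, and DHCR7 0.31 and 0.29. Quantile normalisation and equal array medians called SREBF2 higher too, at 0.44 (adjusted p = 0.0058) and 0.28 (adjusted p = 0.036).

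**Figure D4:**
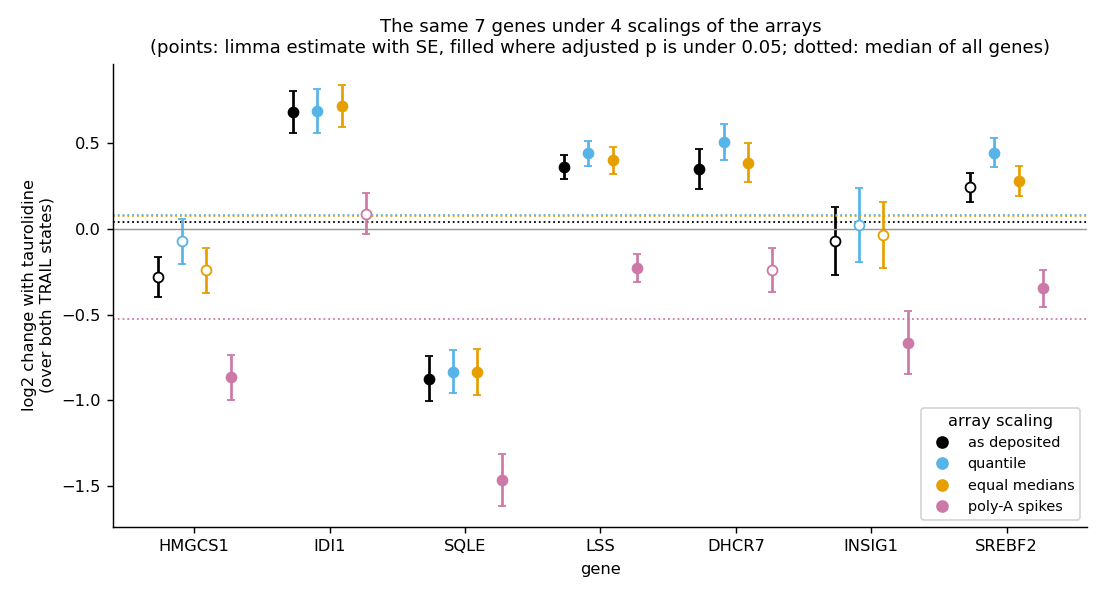
Log2 change of the 7 members with taurolidine over both TRAIL states under 4 scalings of the arrays, with standard errors, filled where the adjusted p is under 0.05; dotted lines mark the median of all genes in the colour of the scaling. Scaling on the spikes shifts every member down with that median, and SQLE is the member furthest below it under each of the 4.

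The other genes of the pathway were read in the same contrasts, from 6 lists with 67 genes, of which 57 had a probe set and 55 were tested. Taurolidine against untreated called 2 of 12 other synthesis enzymes higher, PMVK (0.57 ± 0.15, adjusted p = 0.032), the phosphomevalonate kinase, and TM7SF2 (0.37 ± 0.11, adjusted p = 0.046), a sterol reductase, beside 7.71% of all genes. None was lower, at an unadjusted p under 0.05 either, and 5 were higher by that measure. The median of the list was 0.26 against -0.00 for all genes. With both agents, and with taurolidine added to TRAIL, 0 of 12 were called (3 at an unadjusted p under 0.05 in each, all higher). Over both TRAIL states 6 of 12 were called higher, beside 16.6% of all genes, and 0 lower (0 at an unadjusted p under 0.05), beside 18.1%, and the median was 0.24 against 0.04.

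Among 12 genes of SREBP processing and sterol sensing, 0 rose (1 at an unadjusted p under 0.05) and 2 fell with taurolidine in limma, beside 7.71% and 11.5% of all genes. Over both TRAIL states 2 rose and 4 fell, beside 16.6% and 18.1%. FBXW7, the ubiquitin ligase subunit that marks nuclear SREBP for degradation, read 957, 860.2 and 737 untreated and 235, 212 and 110.4 with taurolidine and fell by 2.18 (SE 0.21, adjusted p = 0.00098). RNF139, a sterol-sensing ubiquitin ligase of the endoplasmic reticulum, fell by 1.09 (SE 0.14, adjusted p = 0.0028). SREBF1 (0.14), SCAP (0.22) and INSIG2 (-0.04) did not pass. Both falls held under all 4 scalings, and with both agents FBXW7 fell by 1.92 and RNF139 by 1.34.

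The neighbouring branches are read beside the same 7.71% of all genes called higher and 11.5% called lower. Of 7 genes of uptake and transport, NPC2, a lysosomal cholesterol carrier, rose with taurolidine (0.54, adjusted p = 0.011), and STARD4, a cytosolic sterol carrier, rose with both agents (0.54, adjusted p = 0.041). Of 9 fatty acid genes known as SREBP-1 targets, FADS2 (0.54), ACSS2 (0.45) and LPIN1 (0.46) rose with taurolidine, and none fell, at an unadjusted p under 0.05 either; over both TRAIL states 5 of 9 rose, beside 16.6% of all genes. Of 5 genes of LXR and efflux, MYLIP, which tags lipoprotein receptors for degradation, rose (0.68, adjusted p = 0.037), and ABCA1 was at -0.04. Of 10 genes of the isoprenoid branch, FNTA rose (0.40) and NUS1, a subunit of dolichol synthesis, fell by 0.54 (adjusted p = 0.020, and 0.062 with equal array medians). With spike scaling no gene of the 6 lists was called higher in this contrast or over both TRAIL states, so these rises, like that of IDI1, are relative to the array mean.

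**Figure D5:**
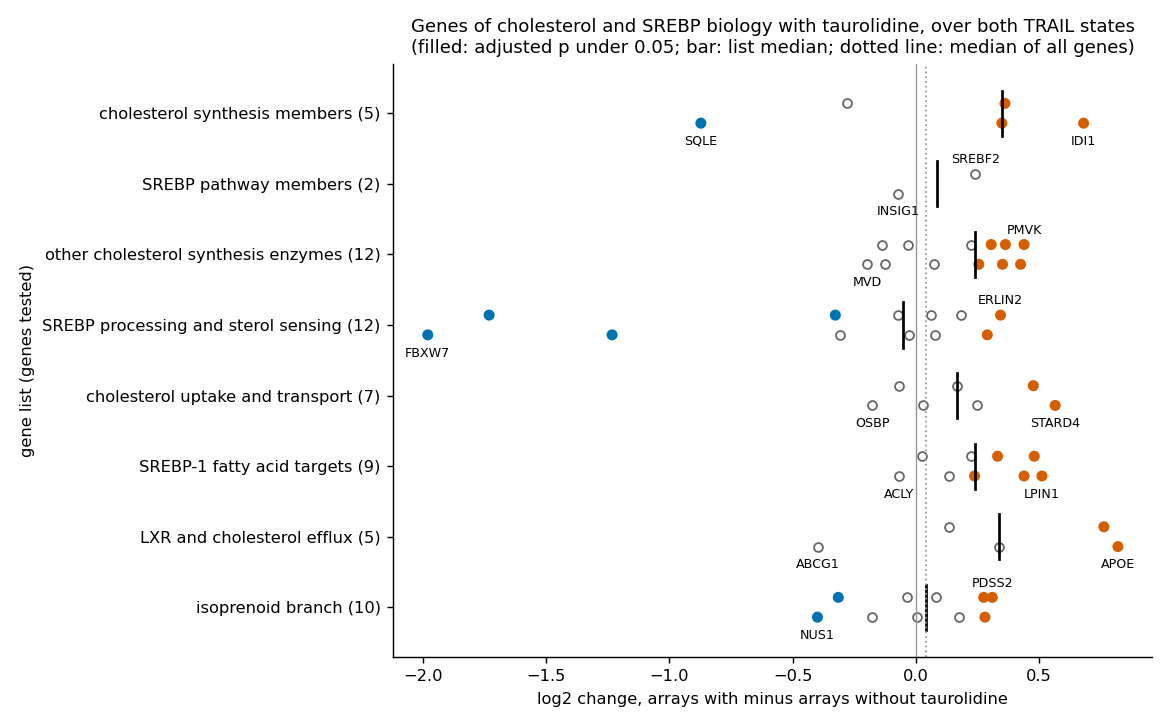
Log2 change with taurolidine over both TRAIL states for the members and the 6 lists of other pathway genes, 1 point for each gene tested; filled points passed an adjusted p of 0.05, bars are list medians and the dotted line is the median of all genes. SQLE stands apart at -0.87 among the synthesis genes, and FBXW7, RNF145 and RNF139 lie lowest in the list of SREBP processing.

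The members did not follow a single course over the 12 arrays. After the mean of each line was subtracted, the log2 values of SQLE and LSS ran opposite (Pearson r = -0.900 over 12 arrays), as did those of SQLE and IDI1 (r = -0.737), while IDI1 and LSS ran together (r = 0.826). HMGCS1 ran with SQLE (r = 0.714) and against DHCR7 (r = -0.790), and INSIG1 had no r above 0.368 in size with any member. These values are descriptions, since the arrays share lines and treatments. The genes most like SQLE were CEMIP2 and CYREN (r = 0.990 each), those most like IDI1 were HSD17B12 and SELENOS (r = 0.984 each), and those most like LSS were POLR2I (r = 0.986) and HSDL2 (r = 0.980). For DHCR7 they were ETV4 (r = 0.943) and SF3B4 (r = 0.937), for HMGCS1 PBRM1 (r = 0.917) and CSNK2A2 (r = 0.906), for INSIG1 MED21 (r = 0.966) and CFAP46 (r = 0.957), and for SREBF2 OR52D1 and USF2 (r = 0.938 each). No member was among the 2 genes most like another, which says little with so few places for the 14221 genes tested. Of these genes, 1898 had an r above 0.8 with SQLE, 1804 with LSS and 1473 with IDI1, but 58 with INSIG1 and 69 with HMGCS1.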

How the data were processed

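The 12 arrays (Affymetrix 3′ expression arrays) were deposited as array intensity on a linear scale, made by the authors with MAS5 per the submitters' processing notes; its version is not given in the sources used here. All value columns matched a sample, and no 2 arrays shared over 0.00183% of their values. Symbols came from the platform annotation (41097 probe sets with 1 gene, 1801 with several, 11777 with none), 41043 of them matched to the gene reference. Probe sets above the table median (136.5) on at least 3 arrays were tested, 32421 in all, with 62 control probe sets left out, and the brightest stood for its gene. Values entered as log2(value + 11.8), which understates changes of dim genes. Models of treatments and of line levels had treatment and line as terms over all 12 arrays (limma 3.58.1, R 4.3.3, with 6 residual and 1.98 prior degrees of freedom). The F test for line differences in the taurolidine response had line, line-by-taurolidine and TRAIL terms. There, arrays with and without TRAIL stood as the 2 arrays of a line and taurolidine state. Benjamini-Hochberg adjustment was over all genes. Figures were drawn with matplotlib 3.10.9.

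Each line received all 4 treatments, which pairs its arrays. Within lines, the deviations of arrays from their treatment's mean had correlations between 0.785 and 0.869. All members were named, and other pathway genes where they passed in 1 of the first 3 contrasts, beside SREBF1, INSIG2, SCAP, ABCA1 and MYLIP. Another 2 genes of that rule and FDFT1 are not analysed here. Members and lists were chosen with earlier results of these data known. Alternatives changed the constant, filter, scaling, probe set rule, line term, arrays, variance trend and lines. The scripts were tested on simulated data.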

Additional observations from a re-analysis of the deposited data

Results flagged for a closer look

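INSIG1 was picked out because its taurolidine arrays lay below the others in SK-LMS-1 (-0.80 on the log2 scale) and above them in A-204 (0.43) and VA-ES-BJ (0.16), each with an SE of 0.14. The test of that difference between lines did not pass (limma F test over the line-by-taurolidine terms, unadjusted p = 0.0011, adjusted p = 0.057). RNF145, a ubiquitin ligase of the endoplasmic reticulum that is not a member, differed between lines by the same test (adjusted p = 0.0061). Its signal went from 16107 to 5354 with taurolidine in A-204, from 8455 to 915 in VA-ES-BJ and from 13720.3 to 12653 in SK-LMS-1, with changes over both TRAIL states of -1.75, -3.19 and -0.26. No treatment group had over 3 arrays, so single arrays far from their group were not looked for.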

How the results depend on the processing

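The number of arrays, 12 with no replicate within a line, limits the precision. Of 2 members called for taurolidine against untreated (1 higher), there was 1 without a filter on dim probe sets, beside 1662 of 19775 genes. A stricter filter gave 4 (2 higher), beside 3109 of 12454 genes. Quantile normalisation and equal medians gave 4 each (3 higher), beside 2660 and 2950 of 14221 genes. Spikes gave 5 with 0 higher, where 8018 of 14221 genes were called and 39 of those were higher. A variance trend gave 5, of which 3 were higher, beside 3596 of 14221 genes. There were 0 from only the 6 arrays compared, beside 0 genes, and 0 to 1 without 1 line, beside 361 to 425 genes. Of 3 with both agents there were 1 without the filter, 0 from only 6 arrays and 0 to 1 without a line. Genes called there were 1553 of 19775, 0, and 233 to 504 of 14221. Of 4 for taurolidine added to TRAIL there were 1 without the filter and 2 with equal medians or mean probe sets (1 higher in each). Genes called there were 1165 of 19775, and 1687 and 2132 of 14221. There were 2 with spikes (0 higher, beside 6347 of 14221 genes called), 0 from 6 arrays and 0 to 1 without a line. The last 2 stood beside 0 and 253 to 481 genes. Of 4 over both TRAIL states there were 0 to 3 without a line, beside 1761 to 2885 genes. Of 5 probe sets there were 2 without the filter, beside 1638 of 54613. There were 0 from 6 arrays and 0 without any line, beside 0 and 0 to 478 of 32421. There were 8 with spikes (0 higher, beside 17700 of 32421 probe sets called) and 8 with a trend (4 higher). For line differences in the response, 0 members became 1 with the median constant, stricter filter or quantile normalisation and 3 with a trend. Without the pairing by line (no block for the line) 0 members passed in any treatment contrast. For TRAIL, TRAIL added to taurolidine, the departure and the line response, leaving out a line gave 0.

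Changes that turned round, on the log2 scale: with spikes DHCR7 was at -0.16, -0.025 and -0.24 and LSS at -0.31, -0.042 and -0.23 for taurolidine, both agents and over both states, LSS at -0.15 for taurolidine added to TRAIL, and SREBF2 at -0.37 for both agents and -0.34 over both states. SREBF2 with taurolidine was at 0.15 (quantile), 0.047 (equal medians), 0.0065 (mean probe sets) and 0.015 (without SK-LMS-1), and at -0.0495 for both agents with mean probe sets. INSIG1 was at 0.035 and 0.025 with quantile normalisation for both agents and over both states, and at 0.17, 0.26 and 0.29 without SK-LMS-1. SQLE kept its direction in all 14 alternatives to taurolidine against untreated, from -1.64 to -0.84, and passed in 10; IDI1 did in 14, from 0.07 to 0.90, and passed in 7. Causes of these shifts were not tested. The calls over all genes went from 2735 for taurolidine to 1662 without the filter, 8018 with spikes, 148 without the line term and 0 from 6 arrays.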
